A study of Homo sapiens with 6 samples.

Results

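The 8 genes described here, ATF4, DDIT3 (which encodes CHOP), TRIB3, ASNS, SESN2, XBP1, PPP1R15A and HERPUD1, belong to the integrated stress response and the unfolded protein response. They were chosen by name, with earlier results of these data known, from 60708 genes counted in each of 6 RNA libraries. The libraries came from MDA-MB-231 cells, an established human line of triple-negative breast cancer, which had received a miR-99b-5p mimic or a scrambled negative control by transfection. AGO2, the Argonaute protein that holds a microRNA and its target mRNA, was immunoprecipitated, and RNA was sequenced from the pulled-down fraction (AGO2-IP) and from the flow-through that the antibody left behind. By their titles, 2 AGO2-IP and 2 flow-through libraries came from mimic cells, numbered as biological replicates 1 and 2, and 1 library of each fraction from scrambled cells. The paper's methods describe 2 biological replicates of AGO2-IP for each condition, and the titles were followed here. All groups are 1 cell line grown in culture and transfected, and an IgG pull-down was not analysed here. The comparison of the 2 fractions asks which mRNAs were held by AGO2, and the comparison of mimic with scrambled cells asks which followed the microRNA.

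When cells lack amino acids or when proteins misfold in the endoplasmic reticulum (ER), sensor kinases phosphorylate the translation factor eIF2 and slow protein synthesis, while the mRNA of ATF4 is translated more. ATF4 then induces CHOP, TRIB3, ASNS, SESN2 and PPP1R15A. In parallel, the ER sensor IRE1 splices the mRNA of XBP1, and spliced XBP1 and cleaved ATF6 induce ER chaperones and degradation factors such as HERPUD1. CHOP is known to induce TNFRSF10B, the gene of the death receptor DR5, which the study examined as a miR-99b-5p target, so its values are given beside those of the 8 genes.

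The sequence of the mature microRNA is shown first, since it sets which letters a seed match must hold. It lies at chr19:51692618-51692639 on the plus strand of GRCh38.p14 (RefSeq), with its seed, bases 2 to 8, in capitals.
hsa-miR-99b-5p: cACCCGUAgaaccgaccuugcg
The 6-letter match to the seed, ACGGGT, was searched on the sense strand of 1 canonical transcript per gene (GENCODE release 44). It stood in 14.9% of 19942 protein-coding transcripts, and in 5.61% within the 3′ UTR. Matches of 7 or 8 letters within the longest form, TACGGGTA, all of which contain the 6 letters, stood in 4.75% at any place and in 1.77% in the 3′ UTR. Of the 8 genes only SESN2 held ACGGGT, 12.5% of them, in its 5′ UTR, and no 3′ UTR of the 8 canonical transcripts held it. XBP1 held the shifted letters TACGGG, present in 14.5% of transcripts, in its coding sequence. Both sites are shown with the match in capitals, the SESN2 window at chr1:28259796-28259825 on the plus strand and the XBP1 window at chr22:28795267-28795296 on the minus strand. A match is a description of the letters and shows no binding.
SESN2, 5′ UTR: cactcgggtgcACGGGTcgtcggcgagccg
XBP1, coding sequence: gtgactgtggaTACGGGggttccctttccc

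The promoters of the 8 genes, from 250 bases before to 50 after the RefSeq start in GRCh38.p14, were searched on both strands for 3 motifs of these pathways. They are the CARE element TGATGNAA, which ATF4 binds with a C/EBP partner, the ER stress element ERSE, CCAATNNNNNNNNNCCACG, and ERSE-II, ATTGGNCCACG. The motifs were chosen because these promoters are known for them, so the matches serve as a display. Among promoters of the same length of 27305 genes, 4.46% held CARE, 0.0916% held ERSE and 0.0696% held ERSE-II. CARE was found in ASNS (chr7:97872453-97872482, minus strand) and, read on the opposite strand, in HERPUD1 (chr16:56931960-56931989, plus strand). ERSE was found in XBP1 (chr22:28800598-28800627, minus strand) and ERSE-II in HERPUD1 (chr16:56932019-56932048, plus strand). Each match is in capitals.
ASNS, CARE: caggcaTGATGAAActtcccgcacgcgtta
HERPUD1, CARE on the opposite strand: ggcgggTTGCATCAgcccgtgcccacgtgc
XBP1, ERSE: cgctggCCAATCGCGGAGGGCCACGaccgt
HERPUD1, ERSE-II: acgccgATTGGGCCACGttgggagagtgcc

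The XBP1 intron that IRE1 removes is annotated as 26 bases at chr22:28796128-28796153 on the minus strand. The exact bases at which IRE1 cuts were not determined here, so the stretch shown is the annotated one and may be shifted against the removed one. Among the annotated XBP1 transcripts, 1 of 6 lacks it, and that transcript, the spliced form, is the canonical one. It is shown whole because the counts, made per gene, do not separate mRNA with these bases from mRNA without them.
XBP1, removed by IRE1: GCAGCACTCAGACTACGTGCACCTCT

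Read pairs counted on genes numbered 7772149 in the scrambled flow-through, 8076375 in the scrambled AGO2-IP and 38022779 to 48544756 in the mimic libraries. The scrambled libraries had 92.3% and 95.0% of their read pairs on no single gene, against 21.4% to 47.2% in the mimic libraries, and mitochondrial genes took 43.4% and 3.48% of their gene counts against at most 0.125%. These differences cannot be told apart from the treatment, because each scrambled fraction is 1 library. Summed levels of 8 genes known from this line were 3393 CPM (counts scaled to a common library total) in the scrambled flow-through, 3850 and 2714 CPM in the mimic flow-through, 4428 CPM in the scrambled AGO2-IP and 1251 and 1629 CPM in the mimic AGO2-IP, against 7.32 to 35.8 for 6 luminal breast markers and 0.473 to 2.72 for 4 blood and immune markers.
Between the 2 mimic flow-through libraries, the log2 difference of a gene followed the GC content of its transcript (Spearman's rho -0.755 over 11747 protein-coding genes), whereas between the mimic AGO2-IP libraries it did not (rho -0.00626). The AGO2-IP to flow-through difference carried such a trend too (rho -0.545). Across genes these values share the same libraries and are descriptions. TRIB3 (61.5% GC), SESN2 (59.6%) and PPP1R15A (59.0%) lay above the upper quartile of 57.2% over 19942 protein-coding transcripts. The other members lay between 42.7% (ASNS) and 53.2% (ATF4). Values with each library's GC trend removed are therefore given beside the members' results that they move most.

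Levels are CPM scaled by TMM over the 6 libraries, and where genes are set against each other they are also per kilobase (kb) of the canonical transcript. Fold changes and ratios use TMM factors of the compared libraries alone, so they can differ from the ratio of the levels printed beside them. In the mimic flow-through, ATF4 stood highest at 146 ± 43.5 CPM per kb (SD, n = 2). PPP1R15A, the phosphatase subunit that reverses eIF2 phosphorylation, followed at 42.8 ± 3.37, XBP1 at 32.1 ± 3.69 and the pseudokinase gene TRIB3 at 26.9 ± 16.4 CPM per kb. Lower still were HERPUD1 at 8.73 ± 4.13, SESN2 at 5.02 ± 1.55, DDIT3 at 4.96 ± 2.10 and ASNS at 0.126 ± 0.0216 CPM per kb. XBP1 did not differ from TRIB3 beyond their spread, nor did HERPUD1 from SESN2 or SESN2 from DDIT3. TNFRSF10B stood at 20.0 ± 6.89 CPM per kb.
In the mimic AGO2-IP, ATF4 again stood highest at 36.3 ± 13.6 CPM per kb (SD, n = 2), ahead of PPP1R15A at 25.8 ± 16.2 and XBP1 at 21.9 ± 7.61. SESN2, a sestrin that restrains mTORC1, came next at 12.7 ± 0.536 CPM per kb. HERPUD1 stood at 9.77 ± 1.85, TRIB3 at 8.95 ± 0.297, DDIT3 at 1.26 ± 0.315 and ASNS at 0.172 ± 0.105 CPM per kb. The ranges of ATF4, PPP1R15A and XBP1 overlapped, as did those of HERPUD1 and TRIB3, whereas SESN2 lay above HERPUD1 in both libraries. SESN2 thus stood below TRIB3 and HERPUD1 in the flow-through means and above both in the AGO2-IP.

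**Figure D1:**
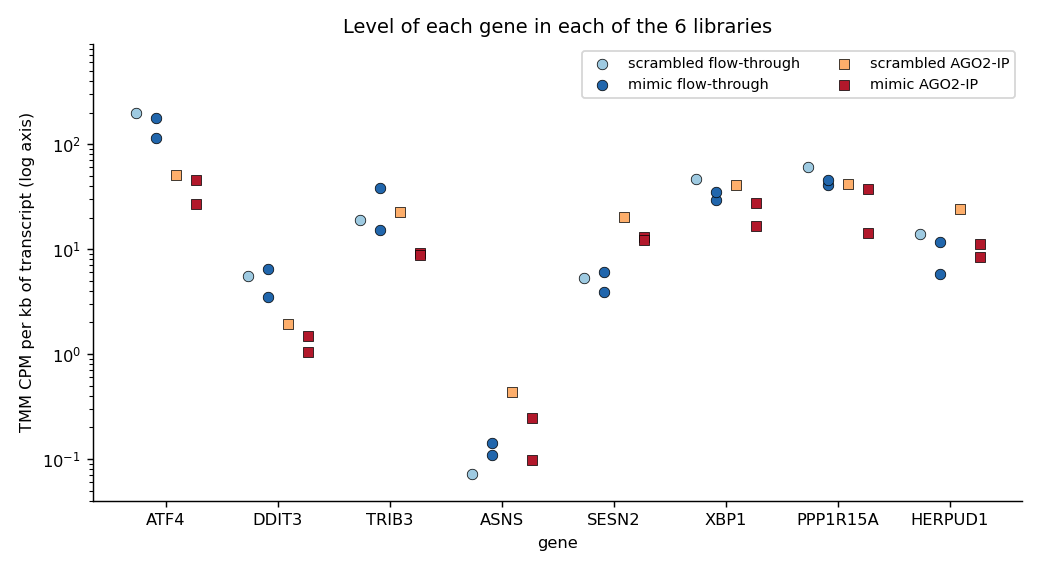
Level of each of the 8 genes in each of the 6 libraries, in TMM-scaled CPM per kb of canonical transcript on a log axis. Circles are flow-through and squares AGO2-IP libraries, pale for scrambled and dark for mimic. ATF4 and DDIT3 sit lower and SESN2 higher in AGO2-IP than in flow-through, and ASNS lies below 1 CPM per kb in every library.

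ASNS and DDIT3 need a reservation. ASNS, which makes asparagine and is a classical ATF4 target, had 1, 10, 19, 11, 29 and 9 counts in the scrambled flow-through, scrambled AGO2-IP, mimic flow-through replicates 1 and 2 and mimic AGO2-IP replicates 1 and 2. Of its canonical transcript, 99.5% is also annotated, on the same strand, as part of the lncRNA ENSG00000284707, which had 10 to 88 counts, and STAR assigns no pair that fits both genes. Its counts are thus no measure of the ASNS mRNA, its sum of 68 in the mimic libraries is under the minimum of 200, and ASNS enters no comparison here. Of the DDIT3 transcript, 35.9% is shared with other genes, MARS1 and MBD6 on the opposite strand and ENSG00000285133 on the same strand, and its unstranded counts were 60.9% of the sum of the counts made by strand. DDIT3 levels are therefore too low, while its ratios between libraries rest on the remaining bases. No exon base of the other 6 genes is shared with another annotated gene.

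AGO2-IP was compared with flow-through in mimic cells over the 13078 genes whose counts summed to 200 or more. Calls required a log2 fold change of 1 or more in size together with an adjusted p no higher than 0.05 (edgeR's quasi-likelihood test, Benjamini-Hochberg). ATF4, DDIT3 and TRIB3 had the lowest values of the 7 members tested, and SESN2 had the highest. None of the 7 was called, where 0.245% of all genes were called higher and 0.413% lower, and 3107 genes (23.8%) had an unadjusted p under 0.05, among them ATF4, DDIT3 and TRIB3. In counts simulated with a coefficient of variation between replicates of 0.5, 0 of 50 genes were called at a true log2 of -1.5 and 0 of 50 at 1.5. At -3 the calls were 15 of 50, and at 3 they were 19 of 50. That coefficient was 0.527 in these libraries, so a missing call does not show a missing difference. In the simulation 12641 of 12841 genes had no true change and no GC trend was built in, so its call rates need not be those of these libraries. The members' median log2 fold change was -0.75, against -0.11 over all genes. Both AGO2-IP libraries lay below both flow-through libraries for ATF4, DDIT3, TRIB3, XBP1 and PPP1R15A, as for 28.5% of all genes, and above them for SESN2, as for 28.1%. The levels are relative to the RNA of each library, and in bulk libraries fewer cells of a kind and less of an mRNA per cell cannot be told apart.

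ATF4, the transcription factor at the head of the response, measured 251 and 164 CPM in the mimic flow-through replicates 1 and 2 and 65.1 and 37.9 CPM in the mimic AGO2-IP replicates. The AGO2-IP values did not reach the flow-through values. Its log2 fold change was -2.02 ± 0.632 (SE, adjusted p = 0.108, edgeR). It was lower in 4 of 4 pairings of the libraries, by a log2 of -2.73 to -1.35. The call depended on the test. PyDESeq2, which called 6.43% of all genes higher and 8.24% lower, called ATF4 lower (adjusted p = 0.0165). The replicate number as a block, which called 4.6% higher and 5.08% lower, did not (adjusted p = 0.0535), whereas the block with the GC trend removed, which called 12.9% higher and 12.6% lower, did (log2 fold change -1.77, adjusted p = 0.00472). Without mimic flow-through replicate 1 or 2 the log2 fold change was -1.73 or -2.33. Without mimic AGO2-IP replicate 1 or 2 it was -2.48 or -1.72.
In scrambled cells ATF4 measured 283 CPM in the flow-through and 72.3 CPM in the AGO2-IP, again lower in the AGO2-IP. The log2 ratio was -2.18 in these single libraries, close to the value in mimic cells, and the difference between the treatments was not tested. Scaled by library size alone, which moved the median of all 8245 genes from 0.01 to 0.89, the ratio of ATF4 was -1.29. Over all genes in scrambled cells, 15.9% reached a log2 ratio of 1 or more and 18.1% reached -1 or less.

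DDIT3, whose product CHOP links prolonged ER stress to death, had 329 and 131 counts in the mimic flow-through replicates and 66 and 36 in the AGO2-IP replicates. These are 5.82, 3.13, 1.34 and 0.935 TMM-scaled CPM, so that the AGO2-IP libraries were again the lower ones. The log2 fold change was -1.99 ± 0.822 (SE, adjusted p = 0.177, edgeR). With the block and the GC trend removed it was -1.96 and called (adjusted p = 0.0149), where 12.6% of all genes were called lower. On the counts made by strand, where pairs in bases shared with opposite-strand genes can go to either gene because the libraries keep no strand, it was -1.56 and -1.37 (adjusted p = 0.228 and 0.280). In scrambled cells DDIT3 had 29 counts in the flow-through, 3.73 CPM with an exact 95% interval of 2.50 to 5.36, and 17 in the AGO2-IP, 2.10 CPM with an interval of 1.23 to 3.37. These unscaled intervals, which cover counting error only, overlap, and the gene was under the minimum of 200 in that comparison.

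TRIB3, which binds ATF4 and CHOP and restrains them, measured 36.0 and 90.6 CPM in the mimic flow-through and 21.6 and 20.6 CPM in the mimic AGO2-IP. The AGO2-IP replicates were nearly equal, and the flow-through replicates were not. Its log2 fold change was -1.60 ± 0.668 (SE, adjusted p = 0.179, edgeR). Without flow-through replicate 1 the log2 fold change was -2.17, and without replicate 2 it was -0.81. With the GC trend removed the value was -0.39 (adjusted p = 0.525). In scrambled cells the level was 44.8 CPM in the flow-through and 53.0 CPM in the AGO2-IP, with a log2 ratio of 0.02 by the TMM factors of these single libraries and 0.24 by those of all 6 libraries.

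SESN2 was the 1 member higher in AGO2-IP in every pairing. It measured 13.6 and 21.2 CPM in the mimic flow-through and 45.1 and 42.5 CPM in the mimic AGO2-IP, without overlap. Its log2 fold change was 1.32 ± 0.635 (SE, adjusted p = 0.231, edgeR), and 0.98 to 1.72 over the 4 pairings. With the GC trend removed SESN2 was called higher (2.23, adjusted p = 0.0354), in a fit whose share of calls over all genes was not computed. So it was with the block added (2.25, adjusted p = 0.00161), where 12.9% of all genes were called higher. By the block alone it was not called (1.35, adjusted p = 0.228), nor by PyDESeq2 (1.31, adjusted p = 0.144).
In scrambled cells SESN2 measured 18.3 CPM in the flow-through and 70.1 CPM in the AGO2-IP, so the higher level in AGO2-IP was present without the mimic. The log2 ratio was 1.71 in these single libraries, 2.59 by library size alone and 1.66 with the GC trend removed.

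PPP1R15A (GADD34) measured 95.1 and 106 CPM in the mimic flow-through and 87.5 and 33.6 CPM in the mimic AGO2-IP. AGO2-IP replicate 2 held most of the difference, and the log2 fold change was -0.75 ± 0.648 (SE, adjusted p = 0.495, edgeR). It was 0.04 with the GC trend removed. XBP1 measured 52.9 and 62.3 CPM in the mimic flow-through and 48.8 and 29.5 CPM in the mimic AGO2-IP, a log2 fold change of -0.57 ± 0.606 (SE, adjusted p = 0.584, edgeR). Neither difference was large beside its SE. In scrambled cells their log2 ratios were -0.73 and -0.42, and 0.16 and 0.47 by library size alone.
HERPUD1, an ER membrane protein that serves degradation of misfolded proteins, was the 1 tested member whose fractions overlapped. It measured 33.2 and 16.6 CPM in the mimic flow-through and 31.6 and 24.1 CPM in the mimic AGO2-IP, and its log2 fold change was 0.15 ± 0.658 (SE, adjusted p = 0.910, edgeR). In scrambled cells it measured 39.8 CPM in the flow-through and 68.4 CPM in the AGO2-IP, with a log2 ratio of 0.56 by the TMM factors of these libraries and 0.78 by those of all 6. TNFRSF10B also overlapped between fractions, with 60.5 and 99.5 CPM against 76.9 and 52.5 CPM in mimic cells. Its log2 fold change was -0.32 ± 0.608 (SE, adjusted p = 0.770, edgeR), and its log2 ratio in scrambled cells was 0.35.

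**Figure D2:**
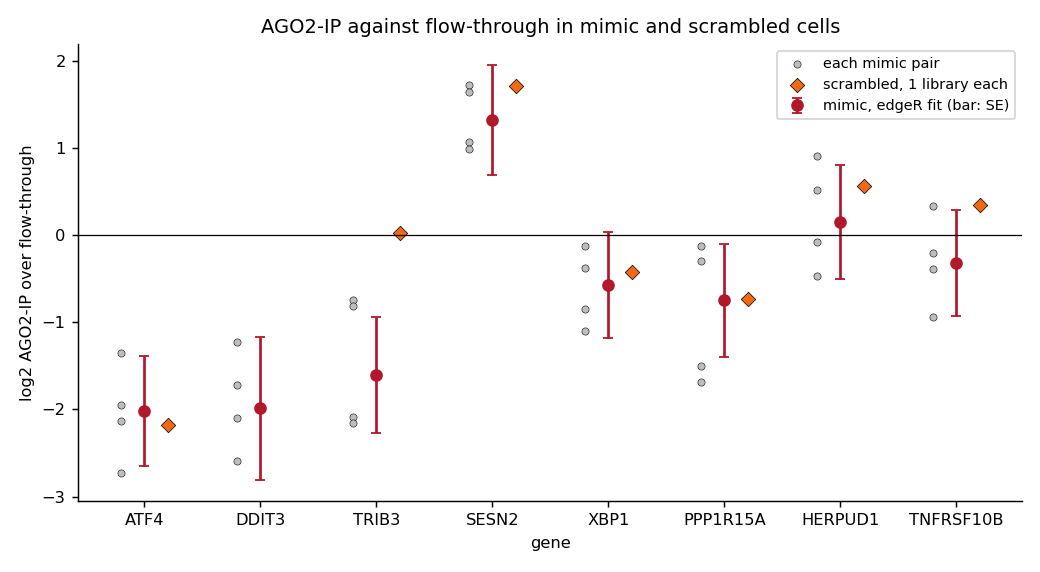
Log2 of AGO2-IP over flow-through for the 7 members tested and TNFRSF10B. Grey points are the 4 pairings of mimic libraries, red points the edgeR log2 fold change with its SE, and diamonds the single scrambled pair, which is missing for DDIT3. All 4 grey points lie below 0 for ATF4, DDIT3, TRIB3, XBP1 and PPP1R15A and above 0 for SESN2, and the diamond of TRIB3 lies at 0.02.

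**Figure D3:**
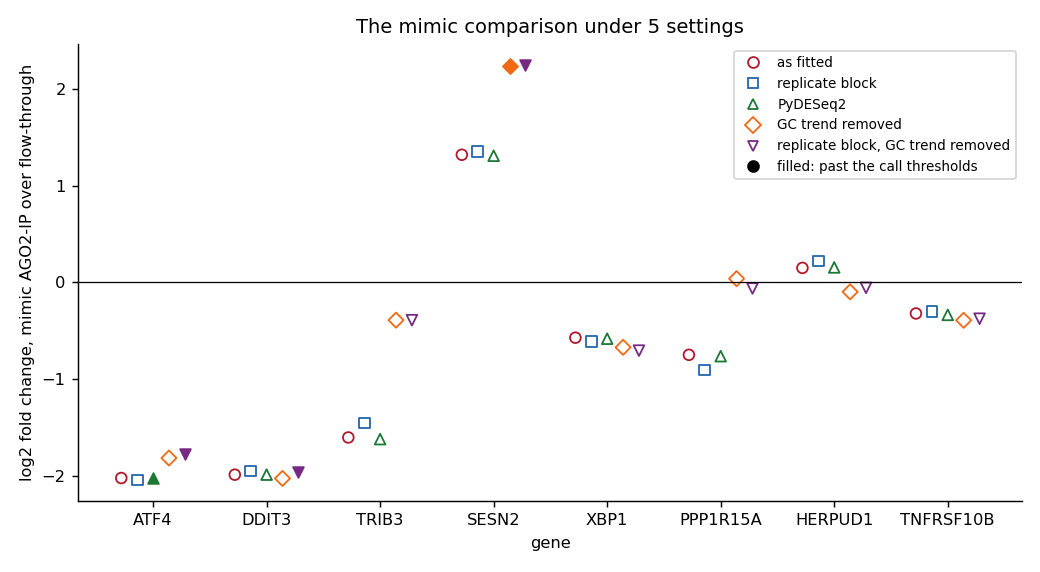
Log2 fold change of mimic AGO2-IP over flow-through under 5 settings, for the same genes. Filled symbols pass both call thresholds, a log2 fold change of 1 or more in size and an adjusted p of 0.05 or less. ATF4 and SESN2 are filled in 2 settings each and DDIT3 in 1, while TRIB3 moves from -1.60 to -0.39 with the GC trend removed. The settings differ in how many of all genes they call higher and lower. These shares are 0.245% and 0.413% as fitted, 4.6% and 5.08% with the block and 6.43% and 8.24% with PyDESeq2. They are 12.9% and 12.6% with the block and the GC trend removed, and were not computed for the GC trend alone.

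In AGO2-IP, the tested members were lower in mimic than in scrambled cells, each time against 1 scrambled library and thus without a test. All 6 members whose counts summed to 200 or more had log2 ratios below 0, from -1.41 to -0.62 with a median of -0.99, against 0.02 over 11467 genes, of which 49.2% lay below 0. At or past -1 were 3 of the 6, TRIB3 (-1.41), HERPUD1 (-1.39) and XBP1 (-1.02), where 17.4% of all genes were that low and 17.3% reached 1 or more. Both mimic libraries lay below the scrambled one for each of the 6. With the GC trend removed the median was -0.42, with all 6 still below 0. The summed level of the 8 genes known from this line was also lower in the mimic AGO2-IP libraries. It was 1251 and 1629 CPM there, against 4428 CPM in the scrambled one. AXL made up the largest part, with 2729 CPM in the scrambled AGO2-IP and 520 and 567 CPM in the mimic ones. VIM (191 CPM against 245 and 260) and ZEB1 (15.1 against 55.7 and 35.8) were higher in the mimic libraries, and the others were lower. The part of such differences in the members' ratios was not tested.
For HERPUD1 the AGO2-IP level was 68.4 CPM in the scrambled library and 31.6 and 24.1 CPM in the mimic ones. The single-library log2 ratios were -1.23 and -1.61, and -1.46 for both libraries with the GC trend removed. For XBP1 the level was 72.8 CPM against 48.8 and 29.5 CPM, and the ratio was -0.92 with the GC trend removed. For TRIB3 the level was 53.0 CPM against 21.6 and 20.6 CPM, and the ratio was -0.54 with the GC trend removed. HERPUD1 thus kept its size, while TRIB3 did not.
PPP1R15A (-0.95) rested on replicate 2, with single-library log2 ratios of -0.29 and -1.66. SESN2 (-0.76) and ATF4 (-0.62) were nearer to 0, and with the GC trend removed SESN2 was at -0.01, ATF4 at -0.30 and PPP1R15A at -0.23. TNFRSF10B had a log2 ratio of -1.28 in AGO2-IP, with 146 CPM in the scrambled library and 76.9 and 52.5 CPM in the mimic ones, and -1.16 with the GC trend removed. The paper reported the opposite direction. It drew its candidate targets from mRNAs that its AGO2-RIP-seq found enriched in mimic over control AGO2-IP, and it named DR5 among them. It also reported an enrichment of TNFRSF10B by RIP-qRT-PCR, 3′ UTR binding by a luciferase reporter and more DR5 protein after miR-99b-5p inhibition. The ratio here rests on 1 scrambled library, and the difference from the paper was not tested. Normalized by TMM before the count filter, which moved the median of all genes to 0.62, no member was past -1, where 7.72% of all genes were.

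In the flow-through, most members were also lower in mimic than in scrambled cells, again without a test. Of 7 members tested, 6 had log2 ratios below 0 and none was past 1 in size, where 10% of the 12254 genes reached 1 or more on this log2 scale and 10.2% reached -1 or less. The median was -0.52 against 0.05 over all genes. HERPUD1 was at -0.80, with 39.8 CPM in the scrambled library and 33.2 and 16.6 CPM in the mimic ones, followed by XBP1 (-0.58), PPP1R15A (-0.52) and ATF4 (-0.52). DDIT3 was at -0.25 and SESN2 at -0.14, while TRIB3 was at 0.32 with single-library ratios of -0.53 and 0.90 on either side of 0.
With the GC trend removed all 7 were below 0, with a median of -0.70. PPP1R15A (-0.84) and HERPUD1 (-0.82) were then the lowest, followed by ATF4 (-0.76) and XBP1 (-0.70), while SESN2 was at -0.47, DDIT3 at -0.41 and TRIB3 at -0.03. Whether the members differed more in one fraction than in the other was not tested, and their medians changed order with the GC trend removed. The values also depended on the scaling. By library size alone, which set the median of all genes at 0.52, the ratios of HERPUD1, XBP1, PPP1R15A and ATF4 were -0.33, -0.11, -0.05 and -0.05, and those of DDIT3, SESN2 and TRIB3 were 0.22, 0.32 and 0.79. TRIB3 thus had no settled sign, and DDIT3 and SESN2 changed sign between the scalings. The AGO2-IP and flow-through comparisons use different libraries, whereas each shares its mimic libraries with the comparison of fractions.

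**Figure D4:**
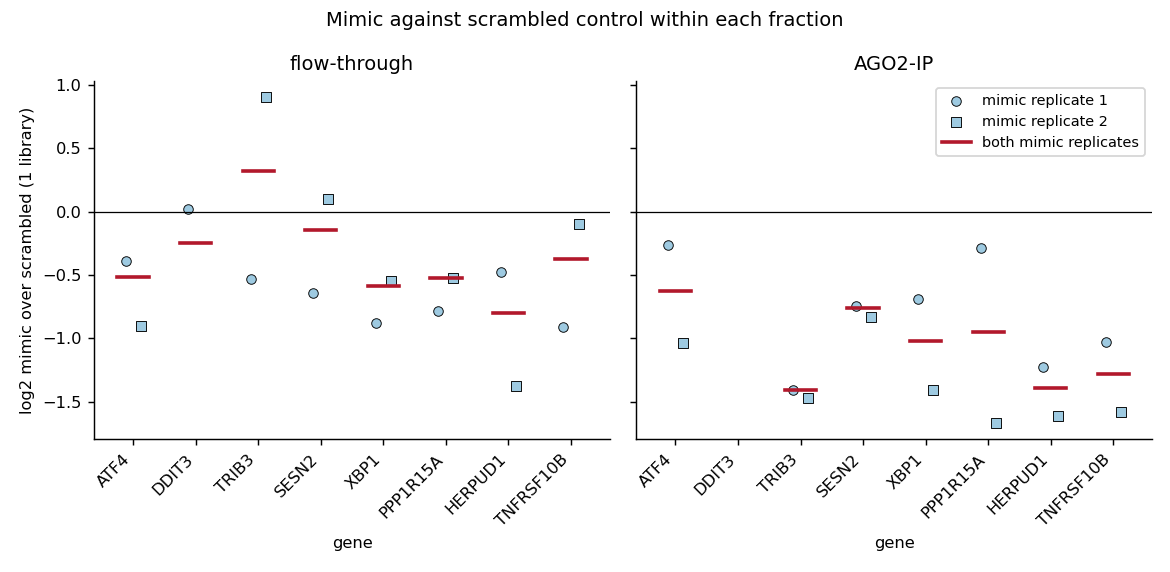
Log2 of mimic over the single scrambled library in flow-through (left) and AGO2-IP (right), for the 7 members tested and TNFRSF10B. Symbols are single mimic libraries and red lines the value from both, each scaled by its own TMM factors; DDIT3 has no value in AGO2-IP and 1 symbol in flow-through, where counts were under 200. In AGO2-IP all symbols lie below 0, and in flow-through those of TRIB3 and SESN2 lie on both sides.

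Around the members, 4 lists of pathway genes that hold none of the 8 were examined. Against scrambled cells, the list that stood lowest was that of 29 XBP1 and ATF6 target genes, the chaperones, folding enzymes and translocation and degradation factors of the ER. In the flow-through, 18 of 28 tested had a log2 ratio of at most -1 and 0 one of at least 1, where 10.2% of all genes were at most -1, with a median of -1.33 against 0.05 over all genes. In AGO2-IP, 16 of 28 were at most -1, where 17.4% of all genes were, with a median of -1.08 against 0.02. The counts with the GC trend removed were 18 in both fractions, beside 10.05% and 13.2% of all genes. By library size alone they were 10 and 17, beside 4.16% and 20.7%. Without mimic flow-through replicate 1 or 2 the flow-through count was 14 of 26 or 18 of 27, beside 20.7% or 11.7% of all genes. Without mimic AGO2-IP replicate 1 or 2 the AGO2-IP count was 16 of 27 or 13 of 28, beside 17.5% or 19.1%. These ratios have no test, since each rests on 1 scrambled library with 7772149 or 8076375 gene counts, and the part of that library's make-up in them was not tested.
As examples chosen after their values were seen, HSPA5, the main ER chaperone (BiP), had 1395 counts in the scrambled flow-through and 4145 and 5519 in the deeper mimic flow-through libraries, a log2 ratio of -1.31. In AGO2-IP its ratio was -2.11. The disulfide isomerase PDIA4 had ratios of -2.12 and -3.03, and the lectin chaperone CALR ones of -1.75 and -2.25. SEC61B, a subunit of the ER translocon, had ratios of 0.18 and 0.21 and was thus not among the low genes.
The 40 ATF4 target genes, many but not all of which serve amino acid synthesis, transport and tRNA charging, lay nearer to the other genes. In the flow-through 4 of 36 were at most -1, where 10.2% of all genes were, and 3 at least 1, with a median of -0.18. In AGO2-IP 11 of 36 were at most -1, where 17.4% of all genes were, and 3 at least 1, with a median of -0.55. The AGO2-IP median was -0.081 with the GC trend removed, and 7 of 36 were at most -1, beside 13.2% of all genes. Without mimic flow-through replicate 1, 12 of 36 were at most -1 in the flow-through, beside 20.7%, and 7 without replicate 2, beside 11.7%.
The 18 stress sensors and eIF2 genes had medians of -0.26 in the flow-through and 0.08 in AGO2-IP, which ran from -0.50 to -0.21 and from -0.27 to 0.14 with 1 mimic library left out. The 7 death genes downstream of CHOP, TNFRSF10B among them, had medians of -0.37 in both fractions. Their flow-through median was -0.094 without mimic flow-through replicate 1 and -0.79 without replicate 2, and their AGO2-IP median was -0.39 without mimic AGO2-IP replicate 1 and -1.03 without replicate 2.

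**Figure D5:**
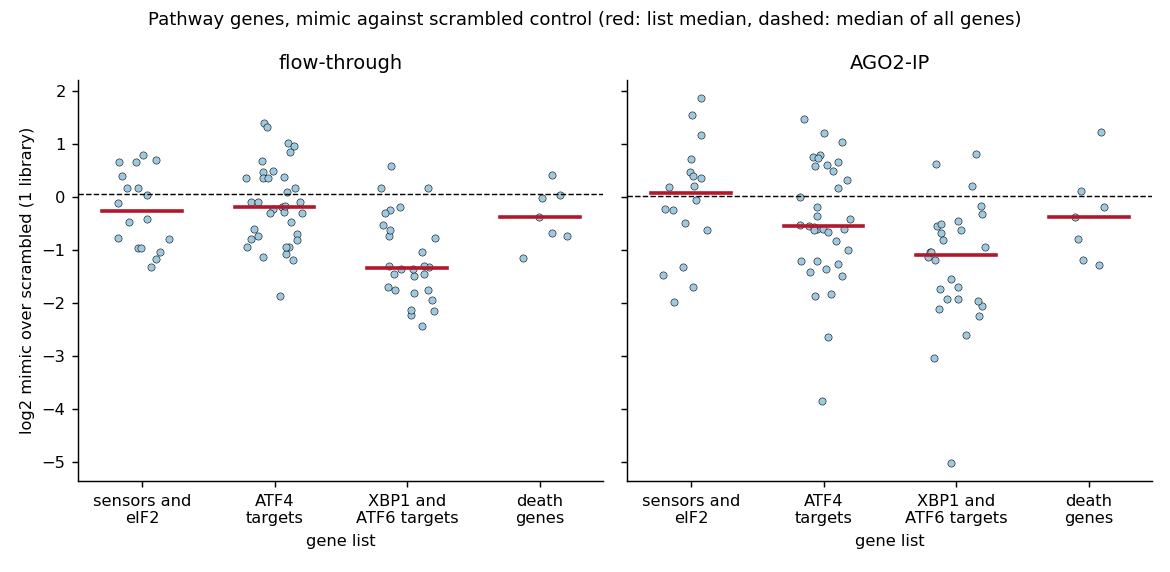
Log2 of mimic over the single scrambled library for the genes of 4 pathway lists, in flow-through (left) and AGO2-IP (right). Points are genes, red lines list medians and dashed lines the median of all genes. The XBP1 and ATF6 targets have medians of -1.33 and -1.08, and the other lists lie nearer to the dashed line.

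Between the fractions of mimic cells, 1 gene of these lists was called. PDIA6, a disulfide isomerase of the ER, rose in AGO2-IP, with 1620 and 1433 counts in the flow-through and 15341 and 11541 in the AGO2-IP. Its log2 fold change was 3.26 ± 0.626 (SE, adjusted p = 0.0490, edgeR), and its log2 ratio in scrambled cells was 2.60. By library size alone it was not called. Of 28 XBP1 and ATF6 targets, whose median was 0.53, it was the 1 called, where 0.245% of all genes were called higher. The block called 4 of these targets higher, where 4.6% of all genes were. They were DNAJB9, DNAJB11, PDIA6 and DERL1, named here after their values were seen.
Of 37 ATF4 targets tested, none was called, 12 had an unadjusted p under 0.05, where 23.8% of all genes did, and the median was -0.01. The amino acid transporter gene SLC1A5 was lowest, at -2.08 (adjusted p = 0.109, edgeR), and NARS1, which charges tRNA with asparagine, was highest, at 2.44 (adjusted p = 0.0685). With the block, which called 4.6% of all genes higher, NARS1 was called higher (adjusted p = 0.0161). CHAC1, DDIT4 and XPOT, named after their values were seen, were called with it.
None of the 18 sensor and eIF2 genes was called, and 3 had an unadjusted p under 0.05, again beside 23.8% of all genes. They ran from ATF6B at -1.11 to EIF2S1, the eIF2 subunit that the kinases phosphorylate, at 2.51 (adjusted p = 0.0869, and 0.00855 with the block). None of the 7 death genes was called, with 2 under an unadjusted p of 0.05. TNFRSF10B was the lowest of them, and BCL2L11 (BIM), which acts on mitochondria, was the highest at 3.22 (adjusted p = 0.0625, and 0.00727 with the block). PyDESeq2 called 3 sensor and eIF2 genes, 7 ATF4 targets, 4 XBP1 and ATF6 targets and 2 death genes higher, and 2 ATF4 targets and 1 XBP1 and ATF6 target lower. Over all genes it called 6.43% higher and 8.24% lower.

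The protein-coding gene whose pattern over the 6 libraries was nearest to each member was found by the Euclidean distance between centred log2 CPM, among the 11898 genes whose counts summed to 200 or more. The nearest were TMEM53 to DDIT3 (0.176), SLC2A8 to TRIB3 (0.198), PCDHGB1 to XBP1 (0.201), ARRB2 to ATF4 (0.333), TMEM205 to PPP1R15A (0.340), TMEM59 to HERPUD1 (0.345) and PDGFA to SESN2 (0.399). No member was nearest to another member. These distances describe 6 libraries and have no test.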

How the data were processed

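AGO2-IP and flow-through RNA of MDA-MB-231 cells was measured in 6 libraries, grouped by their titles. The authors trimmed read pairs with cutadapt 3.5 after FastQC 0.11.9, aligned them to GRCh38 with STAR 2.7.11b in its double-pass mode and deposited its counts per gene, whole numbers without normalization. The annotation release is not given in the sources used here. GENCODE release 44 named 60463 of 60708 identifiers, and promoters and the microRNA came from RefSeq. Unstranded counts were used, since 49.0% to 55.1% of stranded counts fell on the first strand. Rows naming no gene were left out of library sizes. They held 92.3% and 95.0% of read pairs in the scrambled and 21.4% to 47.2% in the mimic libraries.
The mimic fractions were compared with edgeR 4.0.16 (R 4.3.3; glmQLFit, glmQLFTest) after a filter on a summed count of 200 and TMM. The SE is the size of the log2 fold change over the square root of F. Comparisons with a scrambled library are log2 ratios of TMM-scaled CPM with a prior count of 2 and no p. PyDESeq2 0.5.4, DESeq2 1.42.0 size factors, other filters, strand columns, thinning, leave-one-out fits, a GC correction (lowess, span 0.2) and the replicate block were alternatives. The replicate numbers pair the mimic fractions as biological replicates in the labels, and deviations of same-numbered libraries correlated (Pearson's r 0.324, Spearman's rho 0.236 over 13078 genes). P-values measure the spread between these libraries. Scripts were tested on simulated data.
The members and lists were chosen with earlier results of these data known. Named genes are the members, TNFRSF10B, in each list the called genes or else the highest and lowest, and each member's nearest gene. Others (HSPA5, PDIA4, CALR, SEC61B and list genes called with the block) were chosen after their values were seen. Reads carry no molecular identifiers, so intervals cover counting error only.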

Additional observations from a re-analysis of the deposited data

Results flagged for a closer look

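TRIB3 was lower in mimic AGO2-IP than in mimic flow-through in 4 of 4 pairings of the libraries, whereas in scrambled cells the log2 ratio was 0.0243, above 0. The difference between the treatments was not tested. Of 8225 genes with values in both, 953 (11.6%) had all mimic pairings on 1 side of 0 and the scrambled ratio on the other. With the GC trend removed the scrambled ratio of TRIB3 was -0.003, by TMM over all 6 libraries 0.24, and by library size alone 0.91.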

How the results depend on the processing

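No member was called in the main fit of the mimic fractions. Calls are listed here only for fits that kept both libraries of each fraction. Fits with 1 library left out leave a group without a replicate, and their calls, which could differ, are not counted. Lower calls numbered 1 (ATF4) with 200 counts in each library, where the share over all genes was not computed. They numbered 1 with PyDESeq2, beside 8.24% of all genes, and 2 with the replicate block and the GC trend removed, beside 12.6%. Higher calls numbered 1 (SESN2) with the GC trend removed, with and without the replicate block. With the block 12.9% of all genes were called higher, and without it the share was not computed. The block alone called no member (ATF4 adjusted p = 0.0535), while it moved the calls over all genes from 32 higher and 54 lower to 601 and 664. The log2 fold change reversed for PPP1R15A to 0.038 with the GC trend removed, for HERPUD1 to -0.032 with 200 counts in each library, -0.10 with the GC trend removed and -0.057 with the block too, and for TNFRSF10B to 0.14 with TMM before the count filter and 0.14 without a filter. With 1 library left out HERPUD1 ran from -0.30 to 0.68 and TNFRSF10B from -0.68 to 0.05. In scrambled cells, 2 members were past a log2 ratio of 1 by library size alone, against 1 beside 15.9% of all genes. By library size alone the median of all genes was 0.89, and their share past 1 was not computed. In AGO2-IP, members at or past -1 against scrambled cells numbered 1 with the GC trend removed, beside 13.2% of all genes. They numbered 0 with TMM before the count filter, beside 7.72%. Without mimic AGO2-IP replicate 1 they numbered 5, beside 17.5%, and without replicate 2 they numbered 2, beside 19.1%. In the flow-through they numbered 0 to 1 with 1 library left out, beside 11.7% to 20.7%. Genes called higher in the lists numbered, with the block, 1 (sensors), 4 (ATF4 targets), 4 (XBP1 and ATF6 targets) and 2 (death genes), beside 4.6% of all genes. With PyDESeq2 they numbered 3, 7, 4 and 2, beside 6.43%, with 2 ATF4 targets and 1 XBP1 and ATF6 target lower, beside 8.24%. By library size alone 0 were called. XBP1 and ATF6 targets at or past -1 in the flow-through numbered 10 by library size alone, beside 4.16% of all genes, against 18 beside 10.2%. TMM before the count filter, TMM over all 6 libraries and the alternatives for these list counts were chosen after seeing the data. With 1 library left out, a lone library is assumed to vary like the other group. The cause of these changes was not tested. Depth limits DDIT3, which had 17 and 29 counts in the scrambled libraries, and the pairs shared with an overlapping gene limit ASNS. Comparisons with 1 scrambled library have no replicate check.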
